A study of Mus musculus with 12 samples.

Results

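The genes described here are 10 members of the paired immunoglobulin-like receptor families of myeloid cells and their signalling partner: Pirb, Pilra, Pilrb1, Cd300a, Cd300lf, Cd300lb, Cd300ld, Cd200r1, Cd200r3 and the adaptor gene Tyrobp. They were taken by name, as every probe set of the array annotated to 1 of these symbols, out of 18193 genes with a probe set of their own. RNA came from mast cells grown out of the bone marrow of C57BL/6 mice. Culture lasted 4 to 6 weeks, for 6 samples with interleukin 3 (IL3, 30 ng/ml) and for 6 others with IL3 at the same dose together with stem cell factor (SCF, the ligand of the receptor tyrosine kinase KIT, 100 ng/ml unless the study indicated another dose). Each RNA was hybridised to 1 single-colour Affymetrix array, and all values are linear probe set signals as deposited. No label ties a replicate to a separate culture or animal. The p-values set the difference between the groups against the scatter of these samples only, and that scatter may be technical. The number of arrays limits the precision.

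Paired receptors are close relatives of which one inhibits and the other activates the cell that carries it. The inhibitory form has a long cytoplasmic tail, usually with tyrosine motifs (ITIMs) that recruit phosphatases. The activating form has a short tail and signals through an adaptor with an activation motif (ITAM), such as DAP12, the product of Tyrobp, or the Fc receptor gamma chain. On mast cells these receptors are known for raising or lowering the response to IgE and antigen, and several of them recognise lipids, MHC class I or CD200 on other cells.

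With SCF, 5 of the 10 genes were higher and 0 lower, while 5 did not pass the test (limma with Benjamini-Hochberg adjustment over 27167 probe sets, adjusted p below 0.05, each gene judged by its brightest probe set). The risen genes were Pirb, Pilra, Pilrb1, Cd200r1 and Cd200r3, with changes between 1.24-fold and 1.81-fold. None of the 4 CD300 genes among the members rose, and Tyrobp did not pass. Across 11429 genes judged the same way, 17.5% were higher and 15.5% lower, and the median log2 change was 0.02, against 0.22 over the 10 genes. The members were chosen with earlier results of these data known, so their excess over these values is a description and not a test.

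All 10 genes passed the filter on dim signals, and so did each of their 13 probe sets with 1 symbol. Of these 13, 7 were higher and 1 was lower, beside 17.3% and 13.6% of all probe sets tested. In 5 of the 7 and in the 1 lower probe set no array of one culture reached the range of the other, which held for 8.94% of all probe sets in the higher and 7.69% in the lower direction. A further 3 probe sets are annotated to Pirb together with its relatives and are given with that gene.

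**Figure D1:**
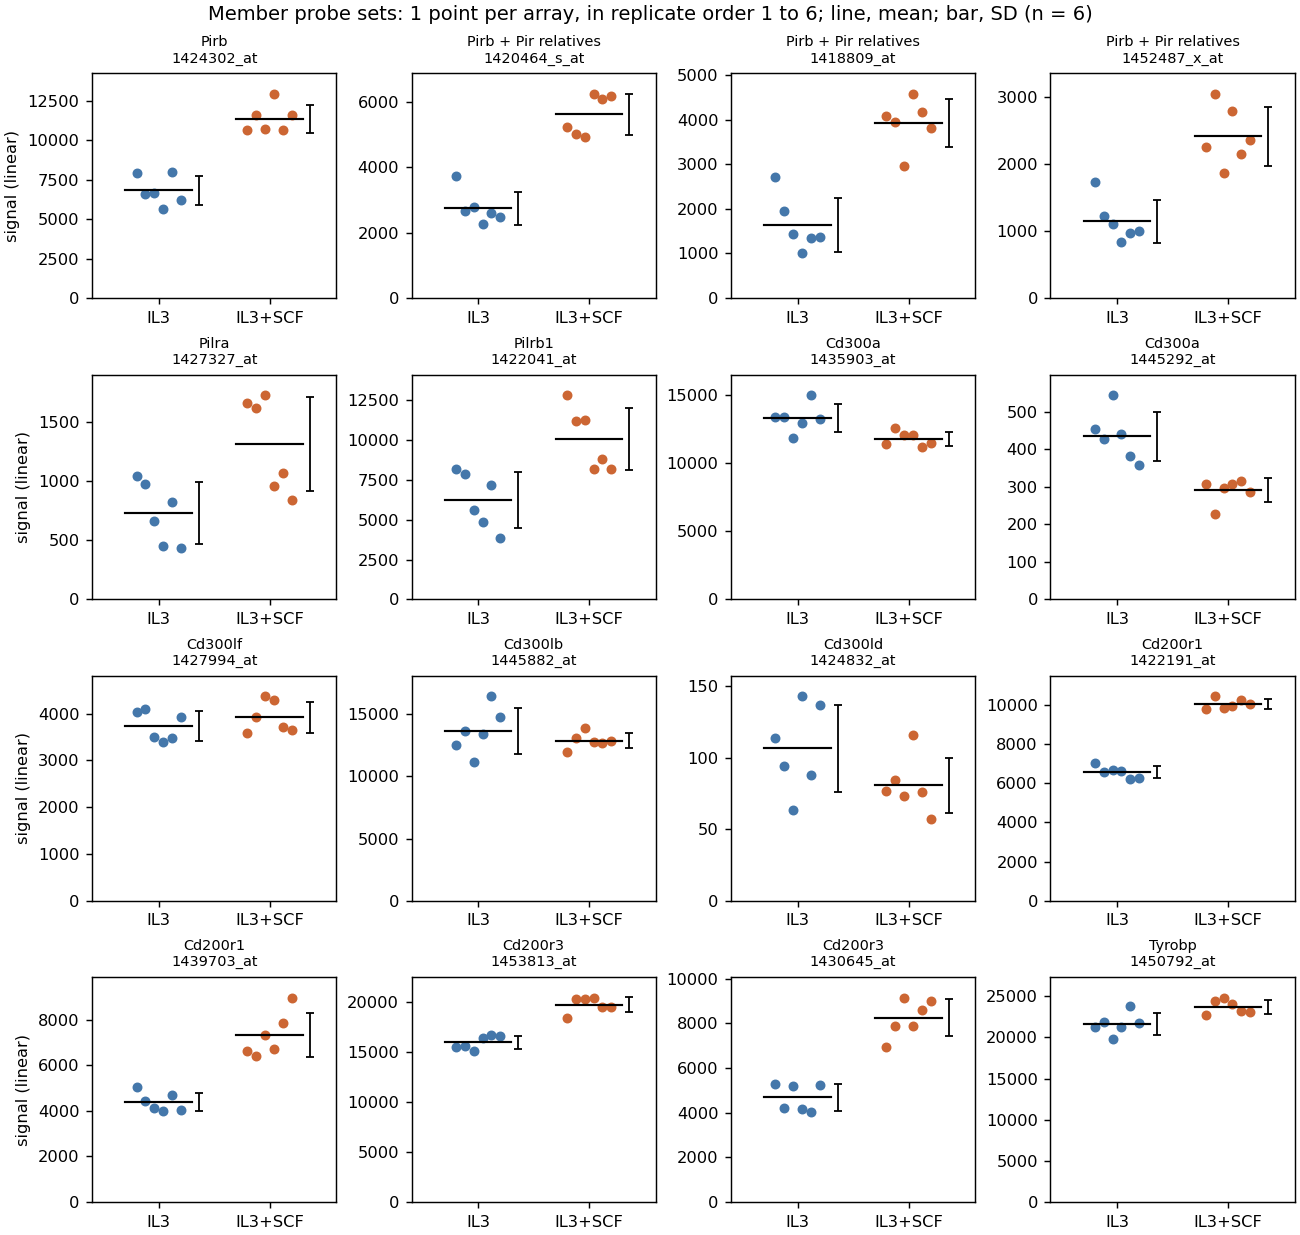
Linear signal (y axis, from 0) of the 16 probe sets annotated to the members in each array, with IL3 in blue and IL3+SCF in orange. Each point is 1 array, the line is the mean of 6 and the bar beside it the SD. The Pirb and Cd200r panels show separate groups, the Pilra and Pilrb1 panels show wide spreads that overlap, and the brightest CD300 probe sets and Tyrobp overlap.

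The mast cell character of both cultures was read from 10 marker genes, of which 10 were tested and 0 were called at their brightest probe set. Of 6 dimmer probe sets of these genes 3 were called higher, those of Tpsb2, a tryptase gene (log2 change 0.91 ± 0.09, adjusted p = 1.12e-05), Hdc, the histidine decarboxylase gene (0.78 ± 0.23, adjusted p = 0.0206), and Ms4a2, the IgE receptor beta chain gene (0.15 ± 0.05, adjusted p = 0.0367). The mean signals of Kit were 19388 ± 1202 without and 19172 ± 539.9 with SCF (SD, n = 6 arrays each), and those of Fcer1a, the ligand-binding chain of the IgE receptor, 44677 ± 3139.8 and 44049 ± 1893. The labels give a purity above 99% for both cultures, judged by staining and by the IgE receptor and KIT on the surface. Markers of other cells were not evenly spread. The summed signal of 11 neutrophil markers was 5768.5 and 7164 on IL3 replicates 3 and 6, between 330.0 and 1436 on the other IL3 arrays and between 247 and 418 with SCF, with 3 of the 11 dim on every array. On those 2 arrays S100a8 had signals of 1773 and 2153 and S100a9 of 2776 and 3475, and with SCF neither exceeded 51.0. A signal at or below the 40th percentile of its array is called dim here. The sum of 12 monocyte and macrophage markers lay between 8335 and 12075 in IL3 and between 3111 and 3515 with SCF. In IL3 most of that sum came from Cx3cr1, the fractalkine receptor gene (6563 ± 1634 and 417 ± 78.1), and Lyz2, a lysozyme gene (2188 ± 479 and 709 ± 130.4). Of the 12, 5 were dim on all arrays, and Csf1r, the macrophage growth factor receptor gene, was dim on 5 of 6 arrays in each culture at its brightest probe set. In the same list Cd68 rose by 1.28 on the log2 scale, to a mean signal of 1225 that entered the sum with SCF. Basophil markers summed to between 63785 and 70886 in IL3 and between 55054 and 59559 with SCF. Most of that sum came from Ifitm1 (36472 ± 3002 and 32842 ± 2061, not called) and Cd69 (20087 ± 2403 and 14864 ± 1525). Cd69 was called lower (log2 change -0.43, limma adjusted p = 0.00372), and both genes were bright in both cultures. In the basophil list Il3ra rose by 0.44 and Gda fell by 0.44, both on the log2 scale, and Mcpt8 had a signal of 4782 on IL3 replicate 1 and between 437 and 1245 on the other 11 arrays. Sums for eosinophil and dendritic cell markers overlapped between the cultures (1056 to 1590 and 1047 to 1476, and 993 to 1639 and 903 to 1223), with Il5ra of the eosinophil list higher by 1.04 on the log2 scale. In bulk RNA of this kind fewer cells of a type and less RNA per cell cannot be told apart, and the part of other cells in the values below was not tested.

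Promoter windows of 8 of the 10 genes were found in RefSeq's table for GRCm38.p6, each running from 250 bases before to 50 bases after an annotated start. No entry was found for Cd200r1 and Tyrobp. The windows of Pilra and Pilrb1 are shown because their signals moved together from array to array (below). Placed against each other without gaps at the best of all offsets, they shared 246 bases of which 242 were identical (98.4%). The other 27 pairs of member windows reached between 33.9% and 42.6% over at least 100 bases. Whether the likeness of the Pilra and Pilrb1 windows bears on the signals of these genes was not tested. Capitals mark the shared stretch, which lies 54 bases further from the annotated start in Pilrb1.
Pilra, chr5:137836229-137836528, minus strand: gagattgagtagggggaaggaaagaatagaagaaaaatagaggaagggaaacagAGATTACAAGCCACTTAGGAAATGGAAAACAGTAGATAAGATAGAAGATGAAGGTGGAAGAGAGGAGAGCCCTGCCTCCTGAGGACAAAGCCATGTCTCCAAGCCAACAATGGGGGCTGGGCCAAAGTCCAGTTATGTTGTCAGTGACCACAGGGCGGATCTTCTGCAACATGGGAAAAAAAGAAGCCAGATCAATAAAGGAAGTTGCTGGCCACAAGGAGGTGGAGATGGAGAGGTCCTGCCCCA
Pilrb1, chr5:137858000-137858299, minus strand: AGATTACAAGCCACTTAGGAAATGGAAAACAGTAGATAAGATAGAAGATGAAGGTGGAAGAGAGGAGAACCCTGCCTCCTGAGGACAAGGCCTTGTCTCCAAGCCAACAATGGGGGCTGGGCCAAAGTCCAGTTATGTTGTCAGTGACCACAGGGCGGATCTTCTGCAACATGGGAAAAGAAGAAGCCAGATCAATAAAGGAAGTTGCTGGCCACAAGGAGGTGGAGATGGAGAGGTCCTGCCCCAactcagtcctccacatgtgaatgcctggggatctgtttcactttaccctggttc

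Short motifs of factors known from mast and myeloid cells were searched in the same 8 windows, on both strands. The GATA motif, AGATAA, was found in 3 of the 8 (Pilra, Pilrb1 and Cd200r3) and in 11.2% of all 32851 windows of the table. The Pilra and Pilrb1 matches are the same site of their shared stretch, 54 bases apart relative to the starts, and so are not separate occurrences. An ETS motif, GAGGAA, was found in 6 of the 8 (all but Pilrb1 and Cd300lb) and in 28.3% of all windows. The Pilra match lies before the shared stretch, and the Pilrb1 window begins with that stretch. Whether Pilrb1 has the same site is therefore not seen here. CACGTG, an E-box, was in 0 of the 8 and in 7.15% of all. These matches are descriptions of letters and not of binding. The windows of Pirb and Cd200r3, which rose, and of Cd300lf, which did not pass the test, are shown with GAGGAA, its reverse complement and AGATAA in capitals. The ETS letters stood in each of these windows, and no relation between motifs and changes was tested.
Pirb, chr7:3720333-3720632, minus strand: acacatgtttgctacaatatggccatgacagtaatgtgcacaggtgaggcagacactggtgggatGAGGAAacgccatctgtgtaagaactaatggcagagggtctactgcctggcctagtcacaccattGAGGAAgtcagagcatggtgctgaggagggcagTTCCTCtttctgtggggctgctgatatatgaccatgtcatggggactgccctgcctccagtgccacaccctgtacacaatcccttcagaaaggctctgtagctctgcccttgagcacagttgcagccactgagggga
Cd200r3, chr16:44943428-44943727, plus strand: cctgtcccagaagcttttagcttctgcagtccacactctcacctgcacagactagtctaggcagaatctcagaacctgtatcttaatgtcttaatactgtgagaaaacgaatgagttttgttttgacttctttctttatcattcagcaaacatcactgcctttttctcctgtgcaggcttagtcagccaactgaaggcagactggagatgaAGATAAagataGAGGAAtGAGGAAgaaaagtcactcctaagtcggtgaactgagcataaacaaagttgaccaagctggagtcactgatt
Cd300lf, chr11:115133943-115134242, minus strand: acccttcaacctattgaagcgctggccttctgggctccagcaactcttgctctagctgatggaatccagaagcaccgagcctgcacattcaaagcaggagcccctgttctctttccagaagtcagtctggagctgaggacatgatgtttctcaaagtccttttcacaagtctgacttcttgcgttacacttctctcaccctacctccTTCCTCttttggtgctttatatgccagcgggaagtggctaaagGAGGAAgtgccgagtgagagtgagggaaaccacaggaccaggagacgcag

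Pirb, an ITIM-bearing receptor that binds MHC class I, rose. Its 1 probe set without other genes had signals from 5659 through a median of 6592 to 7968 in IL3, and from 10614 through 11146 to 12931 in IL3+SCF. Every IL3+SCF array lay above every IL3 array. The means were 6821 ± 929 and 11345 ± 896 (SD, n = 6 each), a log2 change of 0.74 ± 0.09 (SE, limma adjusted p = 7.89e-05).

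The 3 probe sets that Pirb shares with its relatives also rose, again without overlap between the cultures. The relatives include Pira1 and Pira2, which encode activating receptors of the same family that signal through the Fc receptor gamma chain, and these probe sets cannot assign signal to 1 gene. The brighter of a pair annotated to Pirb, Pira1 and Pira2 had signals from 1017 through 1400.2 to 2723 in IL3 and from 2962 through 4018 to 4584 in IL3+SCF. On this probe set IL3 replicate 1 was the highest of its culture. Its log2 change was 1.31 ± 0.20 (limma adjusted p = 0.000349). For the dimmer one of the same 3 genes the change was 1.08 ± 0.17 (adjusted p = 0.000384), and for a probe set annotated to 6 genes 1.04 ± 0.11 (adjusted p = 3.15e-05). Each of the 3 shared probe sets rose by more than the probe set of Pirb alone. The excess was 0.57 ± 0.18, 0.34 ± 0.14 and 0.30 ± 0.09 on the log2 scale in the same order (SE, exact permutation test over arrays, two-sided, adjusted p = 0.0346, 0.0416 and 0.0195 over 6 comparisons of probe sets). Signals of different probe sets do not share a scale. Changes can also differ between probe sets of 1 gene, by 0.51 for Cd200r3 and by 0.38 for Cd300a (below). Whether Pirb or its relatives rose more can therefore not be told from the excess.

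Pilra and Pilrb1, an inhibitory and an activating receptor for sialylated proteins whose genes are immediate neighbours among the protein-coding genes of the RefSeq order, both rose but with wide spread. Pilra had signals from 429.9 through a median of 740.4 to 1044 in IL3 and from 835 through 1340.4 to 1724 in IL3+SCF. The cultures overlapped, with IL3+SCF replicates 1, 2, 3 and 5 (1069.6 to 1724) above every IL3 array and replicates 4 and 6 (958 and 835) inside the IL3 range. Its log2 change was 0.85 ± 0.26 (limma adjusted p = 0.0252).

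Pilrb1 encodes a receptor that signals through DAP12. Its signals ran from 3848 through 6374 to 8192 in IL3 and from 8189 through 10009 to 12836 in IL3+SCF, and replicates 1, 2 and 3 of IL3+SCF were the highest, as for Pilra. The cultures overlapped only in IL3 replicate 1 and IL3+SCF replicate 4. The brightest probe set of the mast cell marker Hdc, which was not called (adjusted p = 0.0602), divided the IL3+SCF arrays alike, with signals from 9145 to 10834 on replicates 1, 2 and 3 and from 4300.0 to 5702 on replicates 4, 5 and 6, and its relation to these genes was not tested. No other marker of the mast cell list divided these arrays in that way at its brightest probe set. Kit, for example, had 19035 to 20108 on replicates 1, 2 and 3 and 18647 to 19041 on replicates 4, 5 and 6. The log2 change of Pilrb1 was 0.72 ± 0.19 (limma adjusted p = 0.0127). Without IL3 replicates 3 and 6, which carried the neutrophil transcripts, the changes were 0.67 (adjusted p = 0.110) for Pilra and 0.53 (adjusted p = 0.0547) for Pilrb1, so that 3 rather than 5 of the 10 genes were called higher. The call of Pilra was also lost without IL3 replicates 4 and 5 (0.77, adjusted p = 0.0698) and without any 1 of IL3 replicates 4 and 6 or IL3+SCF replicates 1, 2 and 3 (0.72 to 0.78, adjusted p = 0.051 to 0.0557).

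Within each culture the signals of Pilra and Pilrb1 rose and fell together. In IL3 the 6 arrays stood in the same order for both genes, with Pearson r = 0.97 (exact permutation p = 0.00139, the smallest possible, adjusted p = 0.0167 over 12 relations) and Spearman rho = 1 (exact permutation p = 0.00278, adjusted p = 0.0333). In IL3+SCF r was 0.95 (exact permutation p = 0.0264, adjusted p = 0.158) and rho 0.89 (exact permutation p = 0.0333, adjusted p = 0.133), which did not pass after adjustment. Leaving out the 2 arrays farthest from the median of Pilra gave r = 0.98 and 0.90 over 4 arrays. The relation was noticed in these arrays and then tested on them, and whether the probes of one gene also take up transcripts of the other was not tested. Among the other 5 pairs of an inhibitory and an activating receptor, adjusted p ranged from 0.178 to 0.968 for r, over 10 relations. For Cd200r1 and Cd200r3 in IL3 the sign was negative (r = -0.76, exact permutation p = 0.0958, adjusted p = 0.230).

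**Figure D2:**
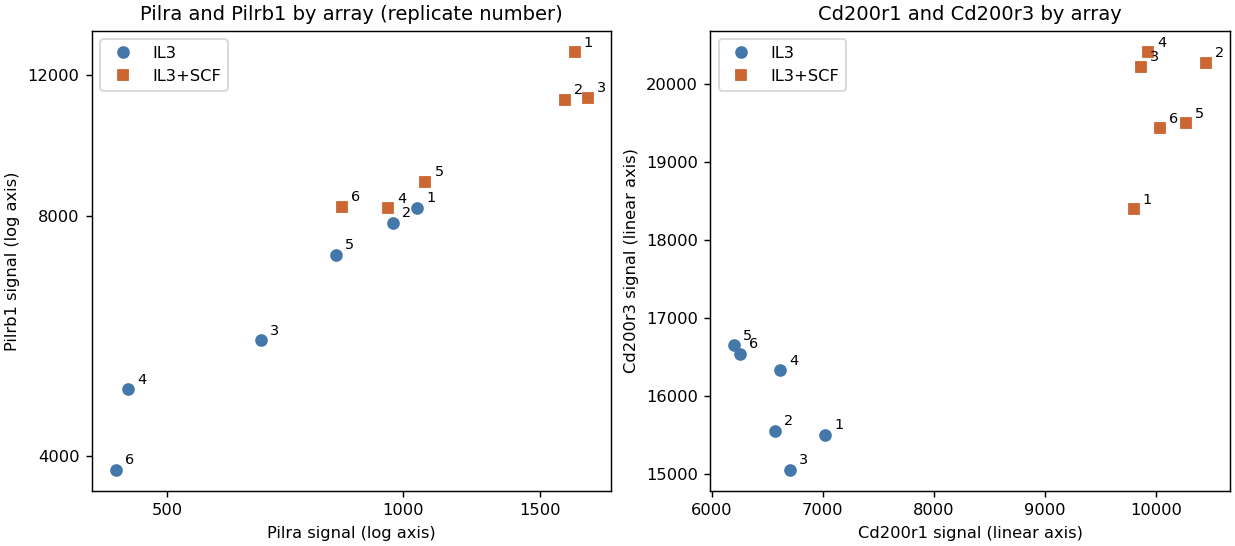
Left, Pilrb1 signal against Pilra signal on log axes, and right, Cd200r3 against Cd200r1 on linear axes that do not start at 0, with 1 point per array marked by its replicate number (blue circles IL3, orange squares IL3+SCF). On the left the points of both cultures lie along 1 rising line and IL3+SCF replicates 1, 2 and 3 stand apart from 4, 5 and 6, and on the right the cultures form 2 separate clouds.

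Both CD200 receptor genes rose. Cd200r1 encodes the inhibitory receptor for CD200, which has no classical ITIM and recruits the docking protein DOK2. Its brightest probe set had signals from 6202 through 6596 to 7021 in IL3 and from 9796 through 9982 to 10446 in IL3+SCF. No IL3 array came near the IL3+SCF range. The log2 change was 0.62 ± 0.05 (adjusted p = 3.13e-06), and a dimmer probe set, also without overlap, gave 0.73 ± 0.09 (adjusted p = 9.16e-05).

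Cd200r3 encodes an activating relative that signals through DAP12 and is known from mast cells and basophils. Signals of its brightest probe set ran from 15059 through 15949 to 16656 in IL3 and from 18397 through 19866 to 20413 in IL3+SCF. The cultures did not overlap, and the log2 change was 0.31 ± 0.05 (adjusted p = 0.000791). The dimmer probe set, with signals from 4011 through 4685 to 5288 and from 6946 through 8241 to 9154, gave 0.82 ± 0.10 (adjusted p = 5.92e-05). The changes of these 2 probe sets of 1 gene differed by 0.51 ± 0.11 (exact permutation test, two-sided, adjusted p = 0.0130 over 6 comparisons), so that the size of the rise of Cd200r3 depends on the probe set while its direction does not. Cd200r4, another activating relative that lies between them in the RefSeq order, rose as well, from 10809 ± 537 to 14183 ± 1619 (log2 change 0.39 ± 0.08, adjusted p = 0.00238). All 3 CD200 receptor genes with a probe set of their own were thus called higher, beside 17.5% of all genes. Cd200r4 is no member and was added after the values were seen, and the difference from that share was not tested.

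The CD300 genes encode receptors that bind phospholipids and other lipids. Of 6 with a probe set of their own, 5 were tested, 0 rose and 1 fell, the latter being Cd300c2, which is no member. With 17.5% of all genes higher and 15.5% lower, such counts among 5 genes are near the background, and the difference from the other families was not tested. Cd300a, an ITIM receptor for phosphatidylserine and phosphatidylethanolamine, had signals from 11849 through 13275 to 14963 in IL3 and from 11158 through 11741 to 12533 in IL3+SCF. The ranges overlapped, and the log2 change of -0.17 ± 0.06 missed the threshold (adjusted p = 0.0552). This is close to the threshold, and 7 alternatives put it past, with adjusted p between 0.000133 and 0.0462. They include the fit of 1 probe set per gene (adjusted p = 0.0361) and the mean of both probe sets (a log2 change of -0.36), and leaving out IL3 replicate 3 (-0.20, adjusted p = 0.0281). The dimmer probe set of Cd300a did fall, from signals of 357.7 through 434.5 to 544 in IL3 to 228 through 302 to 317 in IL3+SCF, with no overlap (log2 change -0.55 ± 0.10, adjusted p = 0.00159). The difference between its 2 probe sets was -0.38 ± 0.15 (exact permutation test, two-sided, adjusted p = 0.0357).

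Cd300lf, an inhibitory receptor that binds ceramide and sphingomyelin, had signals from 3390.5 through 3718 to 4109 in IL3 and from 3584 through 3817 to 4373 in IL3+SCF. The ranges largely coincided, and the log2 change was 0.07 ± 0.08 (95% interval -0.10 to 0.23, adjusted p = 0.535). Cd300lb, an activating receptor that signals through DAP12, had signals from 11121 through 13545 to 16442 in IL3 and from 11972 through 12821 to 13889 in IL3+SCF. All 6 IL3+SCF arrays lay inside the IL3 range, and the log2 change was -0.07 ± 0.09 (95% interval -0.26 to 0.11, adjusted p = 0.560). For both genes a rise of the size seen for Cd200r1 lies outside the interval.

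Cd300ld, an activating receptor that uses the Fc receptor gamma chain, was near the background of the arrays. Its signals ran from 63.2 through 104.0 to 143 in IL3 and from 57.1 through 76.4 to 116 in IL3+SCF, and it was dim on 1 IL3 and 3 IL3+SCF arrays. The log2 change of -0.33 ± 0.18 did not pass (95% interval -0.71 to 0.06, adjusted p = 0.188), and at this brightness the fold is understated. Cd300c2, the activating relative that neighbours Cd300ld, fell from 4536 ± 628 to 2993 ± 243 without overlap (log2 change -0.59 ± 0.10, adjusted p = 0.000607). Cd300lg was dim on all 12 arrays.

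**Figure D3:**
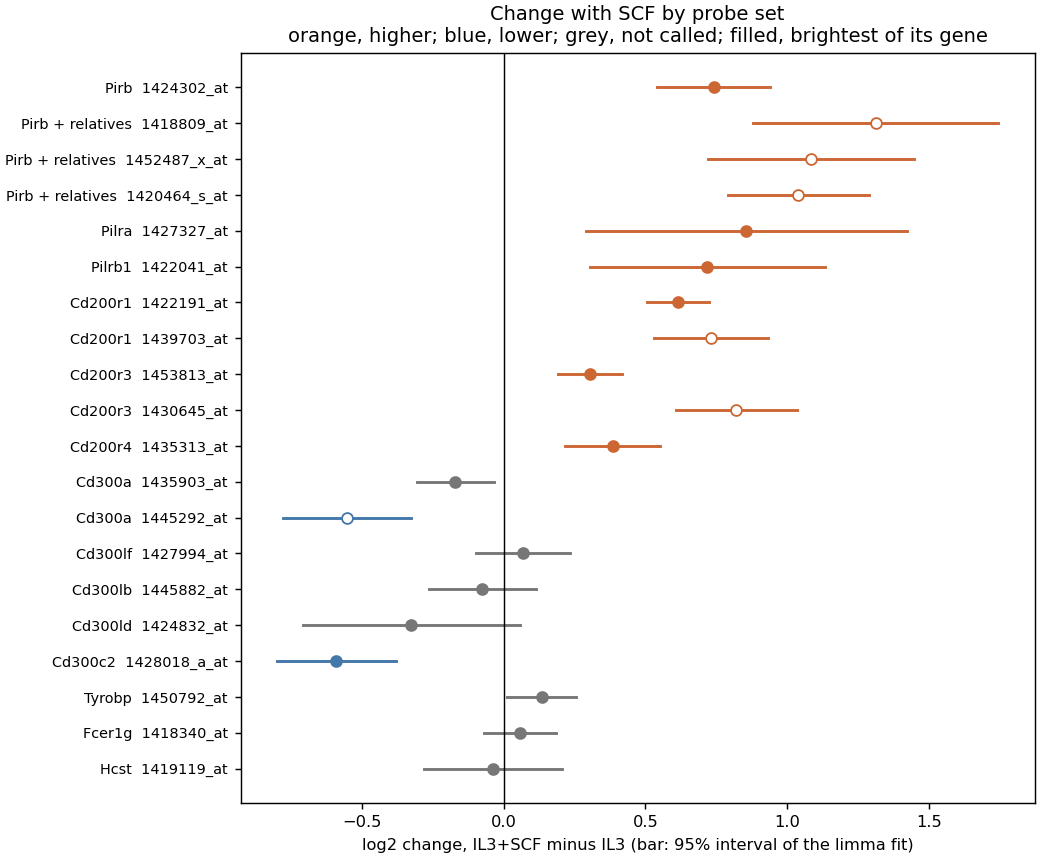
Log2 change with SCF (x axis, IL3+SCF minus IL3) of each probe set of the members, with Cd200r4, Cd300c2, Fcer1g and Hcst for comparison, and the 95% interval of the limma fit as a bar. Orange is called higher, blue lower and grey not called, with filled points for the brightest probe set of a gene. The Pir, Pilr and Cd200r genes lie to the right of 0, and no CD300 gene is called higher.

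The balance of inhibitory and activating receptors was read as the difference of their log2 signals on each array, for 6 pairs within families, and its shift with SCF was tested with an exact permutation test over the 12 arrays (two-sided, p-values adjusted over the 6 pairs). Only Cd200r1 against Cd200r3 shifted, by 0.31 ± 0.05 (SE) towards the inhibitory gene, with 6 of 6 IL3+SCF arrays above every IL3 array (exact permutation p = 0.00216, the smallest possible, adjusted p = 0.0130). That shift rests on the brightest probe sets. With the most variable probe set of each gene it was -0.09 (adjusted p = 0.442), and averaging the probe sets of a gene gave 0.11 (adjusted p = 0.178).

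For Pilra against Pilrb1 the shift was 0.14 ± 0.11 (exact permutation, adjusted p = 0.268). The 4 pairs of a CD300 inhibitory with a CD300 activating gene had shifts between -0.10 and 0.39 with adjusted p between 0.169 and 0.416. The upper of these, Cd300lf against the dim Cd300ld (0.39 ± 0.18), had an adjusted p of 0.0455 without IL3 replicate 3, at a shift of 0.49. The sign of Cd300a against Cd300ld (0.15 ± 0.18) turned with other probe sets of Cd300a.

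**Figure D4:**
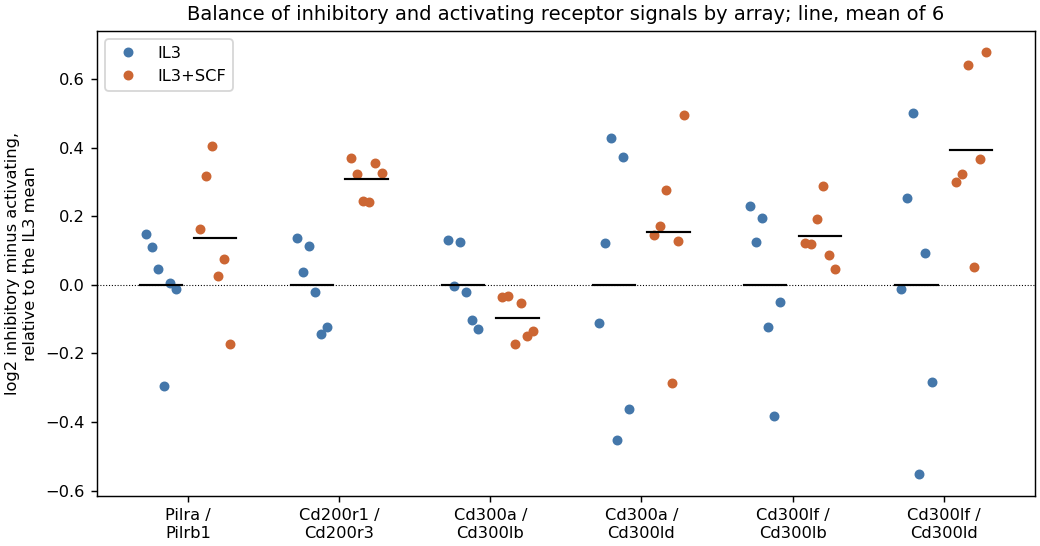
Difference of log2 signals, inhibitory minus activating, for 6 pairs of receptors, relative to the mean of the IL3 arrays (y axis), with 1 point per array (blue IL3, orange IL3+SCF) and a line at the mean of 6. The 6 IL3+SCF points of Cd200r1 against Cd200r3 lie above all IL3 points, and those of the other pairs overlap with IL3.

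Tyrobp, the gene of the ITAM adaptor DAP12 that Pilrb1, Cd300lb and Cd200r3 depend on, was bright in both cultures. Its signals ran from 19827 through 21485 to 23820 in IL3 and from 22745 through 23619 to 24835 in IL3+SCF. The ranges overlapped only through IL3 replicate 5. The log2 change was 0.14 ± 0.06 (95% interval 0.01 to 0.26), and its adjusted p of 0.0861 missed the threshold. It passed after quantile normalization (adjusted p = 0.0152 in limma), with a trended and robust variance (adjusted p = 0.0281), with array weights (0.16, adjusted p = 0.0259) and without IL3 replicate 5 (0.16, adjusted p = 0.0279).

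Of 6 other adaptor genes with an ITAM or a PI3K-binding site, 3 were tested and 0 were called. Fcer1g, the Fc receptor gamma chain used by Cd300ld and the Pira receptors, had 27171 ± 1762 and 28278 ± 1155 (log2 change 0.06, adjusted p = 0.486). Hcst, the gene of the PI3K-binding adaptor DAP10, had -0.04 (adjusted p = 0.836), and the brightest probe set of Cd247, the CD3 zeta chain, 0.08 (adjusted p = 0.746). Cd3e, Cd79a and Cd79b, adaptors of lymphocyte antigen receptors, were too dim to be tested.

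The lists around these receptors were chosen with earlier results of these arrays in view and are given as counts, to be read against the 17.5% higher and 15.5% lower of all genes. Of 56 related inhibitory and activating receptors 27 had a probe set of their own and 14 could be tested. At their brightest probe sets 4 rose, 2 fell and 8 were not called, with a median log2 change of 0.02. Among the genes not called, a dimmer probe set of Cd84 (-0.60) and a dimmer one of Cd47 (-0.15) were called lower. Milr1, the mast cell inhibitory receptor Allergin-1, rose by 0.71 ± 0.17, with overlap between the cultures, and Cd33, a sialic acid-binding lectin, by 0.63 ± 0.06. Treml2, a TREM-like receptor gene, fell by 1.47 ± 0.11, and its 4 probe sets gave between -1.77 and -0.80.

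Of 17 tested kinases and adaptors downstream of ITAM receptors 4 rose and 3 fell, shares near those of all genes, with a median of 0.07. These counts hold at the brightest probe sets. Among the genes not called there, dimmer probe sets of Pik3cd (0.39 and 0.45) and Plcg1 (0.42) were called higher. A dimmer probe set of Vav1 (-0.55) was called lower, and the other tested dimmer ones of such genes were not called. Fyn, a Src family kinase, rose by 1.04 ± 0.09. Pik3ap1, an adaptor of PI3K, had a log2 change of 1.15 ± 0.37 (adjusted p = 0.0305) from a signal that was dim on 4 IL3 arrays. It needed the IL3+SCF arrays to pass the filter, so its change and p-value are only descriptions. Fgr, another Src family kinase, had signals of 244 ± 137 in IL3 and was dim on all 6 IL3+SCF arrays. Fgr passed the filter only through the IL3 arrays, so it had to differ, and no fold is given. It is still counted among the 3 that fell, as Pik3ap1 is among the 4 that rose. Pik3r1, a regulatory subunit of PI3K, fell by 0.43 ± 0.09, its 4 probe sets between -0.73 and -0.32.

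The phosphatases and docking proteins that act behind ITIM receptors gave 1 risen and 1 fallen gene of 12 tested, with a median of 0.06. Inppl1, the inositol phosphatase SHIP2, rose by 0.64 ± 0.07, and Dok1, a docking protein, fell by 0.33 ± 0.09 with overlap between the cultures. Ptpn6 and Inpp5d, the phosphatases SHP-1 and SHIP1, had log2 changes of -0.15 (adjusted p = 0.201) and 0.07 (adjusted p = 0.356). The counts of this list depend on the brightest probe sets. Pag1 was not called at its brightest (0.14), but its dimmer probe sets were called lower, with changes from -0.78 to -0.58. Dimmer probe sets of Cblb (0.61 and 0.21), Cbl (0.33) and Rasa1 (0.27) were called higher. The other tested dimmer probe sets of the list were not called.

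Of 13 genes for ligands of the receptors 11 had a probe set of their own and 5 were tested. At their brightest probe sets 1 rose and 0 fell, with a median of 0.02. The risen gene was Rtn4, which encodes the PIR-B ligand Nogo, at 0.18 ± 0.05 from its brightest probe set and up to 0.80 from the others. B2m, the light chain of MHC class I, had -0.09 (adjusted p = 0.384). H2-D1, an MHC class I gene, had -0.002 at its brightest probe set. A dimmer probe set of H2-D1 was called lower (-0.26, limma adjusted p = 0.0217), and its other tested dimmer ones were not called. Cd200, the ligand of CD200R1, was dim on all 12 arrays.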

How the data were processed

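Total RNA of 12 mast cell samples was amplified from 50 ng and hybridised to Affymetrix arrays, per the labels' protocols. The values are linear intensities as deposited by the authors. The submitters' processing notes name GCOS 1.4, and the background correction is not given in the sources used here. After removal of the upper and lower 2% of signals, every array averaged 1250.01. Array medians spanned 0.43 on the log2 scale, and because this was under 0.5 the deposited scale was kept without quantile normalization. No detection calls were used.

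Of 45101 probe sets, 64 were controls, 34958 had 1 gene symbol, 932 several and 9211 none in GEO's platform annotation. All 10 members matched the RefSeq table of GRCm38.p6 by Entrez identifier with the same symbol. A probe set was tested if its signal was above the 40th percentile of the array on 6 or more of 12 arrays (27167 probe sets). Groups were compared on log2(signal + 16), where folds of dim genes are understated, with limma 3.58.1 in R 4.3.3 (lmFit, eBayes, no covariates, two-sided, Benjamini-Hochberg adjustment, threshold 0.05). The fit was checked on simulated data. A gene was judged by its brightest probe set with 1 symbol.

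Single values per array were compared with exact permutation tests. The members, pairs and lists were chosen with earlier results of these data known. Named from the lists were at most 2 risen and 2 fallen genes with the largest change and all adaptors, and from marker lists the first 2 markers and at most 1 risen and 1 fallen gene. The first 2 markers also include Prss34, without a probe set of its own, Prg2 and Epx (at most 220 and 68.3 on any array), and Flt3 (dim on all arrays) and Zbtb46 (193 ± 53.5 and 225 ± 37.3). Cd200r4, Cd300lg, Hdc, Tpsb2, Ms4a2, Ifitm1, Cd69, Ptpn6, Inpp5d, Pag1, Cblb, Cbl, Rasa1, B2m and Cd200 were added after the values were seen. Vav1, Pik3cd, Plcg1, H2-D1, Cd84 and Cd47 were also added then. So were the tests between probe sets, the correlations and the promoter comparison. Alternatives covered pseudocounts of 1 and 64, a filter at the 60th percentile or none, quantile normalization, centring on medians, 1 probe set per gene, other choices of probe set, other variance models, a replicate block, each array left out, and IL3 replicates 3 and 6 or 4 and 5 left out. Python 3.11.15 with matplotlib 3.10.9 made the figures.

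Replicate numbers are shared between the groups, but the deviations of arrays with the same number correlated between -0.24 and 0.31 and over 0.1 for 2 of 6 numbers, so the arrays were not treated as paired.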

Additional observations from a re-analysis of the deposited data

Results flagged for a closer look

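In the dimmer probe set of Cd300a, IL3+SCF replicate 2 had a signal of 228, below the other 5 arrays of its culture by 0.684 of the whole range on the log2 scale, where 0.625 is the 95% limit for 6 values. Of 32 sets of 6 arrays examined this was the 1 that passed, and chance gives about 1 in 20. Without that array the fall of this probe set was still called, as it was in every case of 1 array left out.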

How the results depend on the processing

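Pirb, Cd200r1 and Cd200r3 were called higher in all 26 alternatives, with log2 changes of 0.69 to 0.79, 0.59 to 0.73 and 0.28 to 0.82. Cd300lf, Cd300lb and Cd300ld were called in none of the 26, 26 and 25 that gave a value. The number of members called higher, 5 as reported, ranged from 3 to 6 over the 26 alternatives. It was 3 without IL3 replicates 3 and 6, 6 after quantile normalization, and 4 to 6 when 1 array was left out. The number called lower, 0 as reported, was 1 (Cd300a) with a 60th percentile filter, with 1 probe set per gene, with the most variable probe set, with the mean of probe sets, with a trended and robust variance and without IL3 replicates 3 and 6, and ranged from 0 to 1 when 1 array was left out. Member probe sets called lower were 2 with the trended and robust variance and without IL3 replicates 3 and 6, and 1 to 2 with 1 array left out. For Cd200r1 against Cd200r3 the shift was -0.088 with the most variable probe set and 0.11 with the mean of probe sets, and for Cd300a against Cd300ld -0.23 and -0.036. For Cd300lf against Cd300ld leaving out 1 array gave 0.28 to 0.49. With the replicate number as a block, 3616 probe sets were higher and 2991 lower, against 4691 and 3707 without it. In that replicate block the counts of members were unchanged. Centring each array on its median gave 3369 and 3031 and changed no call of a member. The cause of these differences was not tested. Signal over background limits Cd300ld.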
